A study of Mus musculus with 12 samples.

Results

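Lung metastases of mice whose renal tumors followed deletion of Lats1 and Lats2 were compared, gene by gene, with proximal tubule cells sorted from mouse kidney, the cell type in which the deletion was driven. The comparison takes the 3 lung metastasis libraries and the 3 proximal tubule libraries of a combined bulk RNA sequencing table, which are 6 of the 12 libraries of the series. The remaining 6 libraries, 3 primary kidney tumors and 3 allograft tumors, were used to show where the metastases differed from the other tumors. They also entered the choice of genes to test and the shared estimate of spread. They thus bear on the standard error and p-value of each change against the tubule. Of the 16313 genes tested, 1191 would not have passed on the 6 compared libraries alone. Metastases and primary tumors were dissected from Slc34a1CreERT2;Lats1/2flox/flox mice of mixed background, in which tamoxifen-activated Cre is driven from the locus of the phosphate transporter Slc34a1. Those mice received 3 tamoxifen injections at 1 month of age, and the tumors were taken 4 months later. The tubule cells were sorted by flow cytometry from adult mice of mixed background with the genotype Slc34a1CreERT2;Lats1c/c;Lats2c/+;RosaTomato, and their columns are headed as wild type. These control mice thus carry the same Cre, 2 floxed Lats1 alleles and 1 floxed Lats2 allele, and the labels do not say whether they received tamoxifen. The allograft tumors grew for 6 weeks from Lats1-/-;Lats2-/- cells placed beneath the capsule of the kidney in NOD/scid hosts, a strain without working lymphocytes. The metastases were not sorted and hold lung tissue. No normal lung library belongs to the series, so expression in tumor cells and expression in the lung around them cannot be told apart. In bulk samples fewer cells of a type and less RNA per cell cannot be told apart either. The labels leave unsaid whether the 3 libraries of a group are 3 animals, so a p-value measures only the spread between these samples, and that spread may be technical.

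As background, Lats1 and Lats2 are the kinases at the end of the Hippo pathway. They phosphorylate the coactivators YAP and TAZ and keep them out of the nucleus, where YAP and TAZ bind TEAD factors and switch on genes for growth, adhesion and matrix. The proximal tubule reabsorbs filtered glucose, amino acids, phosphate and protein, makes glucose, and is fueled by fatty acid oxidation in abundant mitochondria. Its identity depends on transcription factors such as HNF4A. The lung is lined by airway club and ciliated cells and by alveolar type 1 and type 2 cells, supplied by a dense capillary bed and patrolled by alveolar macrophages.

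Values are FPKM, a read abundance scaled to transcript length and to library depth. Each change is a difference of mean log2(FPKM + 1), metastases minus tubule, so the change of a gene at low level is understated. Its standard error (SE) comes from a spread estimated over all 4 groups of 3 libraries. The SE and p of a change against the tubule thus also reflect the spread among primary tumors and among allografts. They do not describe the 6 compared libraries alone. A gene was called where its p, adjusted over all 16313 genes tested, was under 0.05. The correlation of log2(FPKM + 1) was 0.953 to 0.963 between metastases and 0.961 to 0.970 between tubule libraries, the groups compared here. It was 0.919 to 0.949 between allografts and 0.797 to 0.928 between primary tumors, where primary tumor 1 was closer to metastasis 1 (0.898) than to primary tumors 2 and 3. The FPKM of all genes summed to 1426300 to 1568600 in the metastases and to 706093 to 738052 in the tubule libraries. Small RNA genes held 57.6% to 62.1% of that sum in the metastases and 11.3% to 12.8% in the tubule libraries. The micro-RNA gene Mir6236 alone stood at 385365 to 454517 FPKM against 0 to 57.2. Mitochondrial genes held 1.93% to 2.48% of the protein-coding FPKM in the metastases and 30.02% to 35.4% in the tubule libraries. Only the tubule cells were sorted, so sorting, handling and tissue cannot be told apart in the comparison. Low values of the tubule columns lay within 0.03 of a whole fragment, at an estimated depth, in 22% to 22.9% of cases, against 60.7% to 62.2% in the metastases. The labels give 1 extraction kit and 1 set of tools for all libraries, and whether the tubule columns were prepared or quantified in another way was not tested. Each change between the groups carries that limit. Both groups had Xist, the RNA of the inactive X chromosome, at 87.9 to 96.9 and 141 to 183 FPKM, and the Y-linked gene Ddx3y at or below 0.259 FPKM. Lats1 stood at 9.54, 10.4 and 10.7 FPKM in the metastases and at 11.9, 12.7 and 12.8 FPKM in the tubule libraries. Lats2 stood at 22.5, 19.9 and 22.4 FPKM and at 10.5, 10.7 and 10.96 FPKM. A level summed over a whole gene does not check the deletion of floxed exons, and both genes were detected in all 6 libraries.

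The metastases and the tubule differed in most of the transcriptome. Of the 16313 genes tested, 8803 (54%) were called higher in metastases and 2355 (14.4%) lower. The median change of all genes was 0.68, so most genes sat a little higher in metastases on the FPKM scale. After median-of-ratios scaling, with factors of 1.09 to 1.11 for the metastases and 0.710 to 0.725 for the tubule libraries, 6099 genes (37.4%) were higher and 4366 (26.8%) lower, and the median fell to 0.20. Rescaling each library to 1 common total (TPM) gave 4511 higher (27.7%) and 5817 lower (35.7%), with a median of -0.18. Quantile normalization gave 4581 higher (28.1%) and 5275 lower (32.3%), with a median of -0.04. Higher calls were thus 78.9% of all calls on the FPKM scale, 58.3% after median-of-ratios scaling, 43.7% in TPM and 46.5% after quantile normalization. All 2355 genes called lower on the FPKM scale were also called lower under each of these scalings. Of the 8803 called higher, 6099 were called higher and 1 lower after median-of-ratios scaling, while in TPM 4500 were called higher and 172 lower. The choice of scaling thus moved the median of all genes, and a change is read beside these medians. Of the genes tested, 3880 were under 1 FPKM in all 3 tubule libraries and 877 were under 1 FPKM in all 3 metastases. A gene near 0 in the tubule was tested only because tumor libraries carried it, so counts over gene lists describe these libraries and are set beside the counts for all genes. Genes and lists were chosen with earlier results of these data known, and many genes are named for a large change. That the groups do not overlap in a named gene thus follows in part from the choice.

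**Figure D1:**
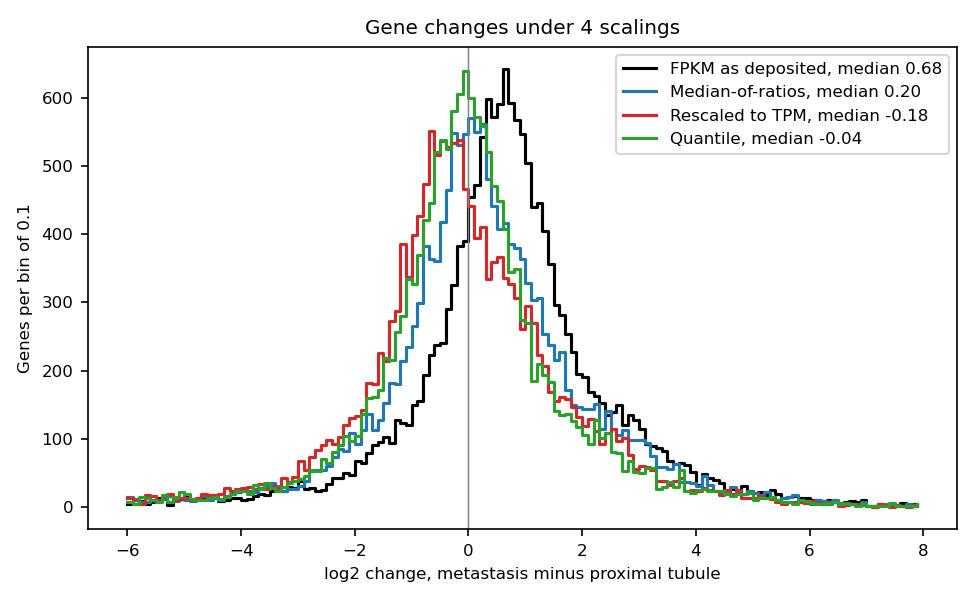
Number of genes (vertical axis, per bin of 0.1) by log2 change of metastases minus proximal tubule (horizontal axis) under 4 scalings of the same 16313 genes. The curve of deposited FPKM has its median at 0.68, and the other 3 curves have theirs at 0.20, -0.18 and -0.04.

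**Figure D2:**
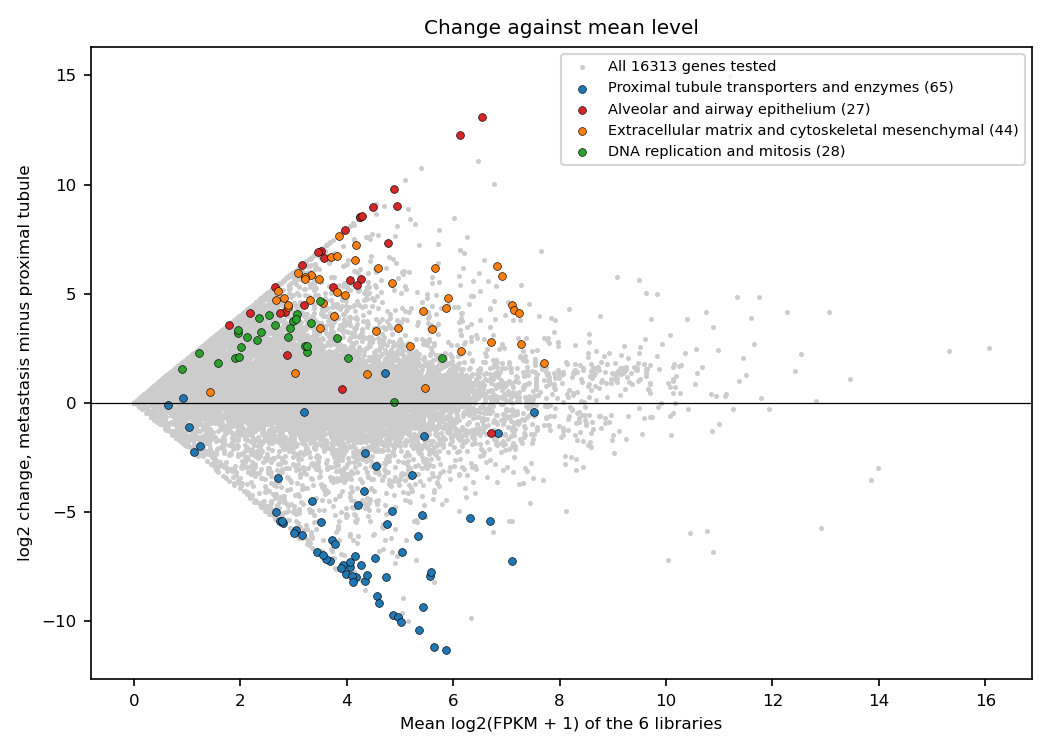
Change of metastases minus proximal tubule (vertical axis, log2) against the mean level of the 6 libraries (horizontal axis, log2(FPKM + 1)) for 16313 genes, with 4 groups of listed genes in color. Nearly all of the 65 proximal tubule transporters and enzymes lie under the line of no change, and the 27 alveolar and airway markers, all but 1, lie above it.

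RNA of most listed transporters of the proximal tubule was close to absent from the metastases. Of 29 listed transporters that could be tested, 27 fell and none rose, on either the FPKM or the median-of-ratios scale, with a median change of -6.83. Among all genes 14.4% were called lower and 54% higher. Slc34a1, the sodium-phosphate cotransporter whose locus drives the Cre, stood at 866, 893 and 1039.8 FPKM in tubule cells and at 0.0169, 0.0609 and 0.0951 FPKM in the metastases (log2 change -9.78 ± 1.27 (SE), adjusted p = 8.13e-05). Slc5a2, the glucose transporter SGLT2, stood at 272, 361 and 333 FPKM in the tubule and at 0.475, 0.171 and 0.455 FPKM in the metastases (log2 change -7.88 ± 1.00 (SE), adjusted p = 6.93e-05). Slc3a1, a subunit of the cystine and dibasic amino acid transporter, went from 289.9, 337 and 407 FPKM to 0.209, 0.195 and 0.237 FPKM (log2 change -8.14 ± 0.61 (SE), adjusted p = 3.49e-06). For these 3 genes every metastasis was under 1 FPKM and every tubule library was above 250 FPKM. Slc27a2, which takes up long-chain fatty acids and activates them, stood at 967, 989 and 1363 FPKM and at 0.605, 0.841 and 0.684 FPKM (log2 change -9.32 ± 0.91 (SE), adjusted p = 1.5e-05). Slc22a6, the organic anion transporter OAT1, stood at 148, 121 and 166 FPKM and at 0.0253, 0.0304 and 0.0161 FPKM (log2 change -7.15 ± 1.41 (SE), adjusted p = 0.00114). In all, 22 listed transporters were under 1 FPKM in each of the 3 metastases. The transporters that were not called were the water channel Aqp1, at 186, 194 and 258 FPKM in the tubule and 180.0, 141 and 153 FPKM in the metastases, and Slc7a13, at 0.709, 0.467 and 0.678 FPKM and 0.304, 1.28 and 0.162 FPKM. Aqp1 is also a gene of capillary endothelium, and Slc7a13 was low in both groups. Slco1a1, listed too, did not pass the filter. Against the primary tumors 25 of the 29 were called lower in metastases, where 9.59% of all genes were, and none was called higher. The primary tumors were unequal in these genes: their summed level was 404.7, 8663 and 2415 FPKM in primary tumors 1 to 3, beside 228.4, 187.3 and 194.8 FPKM in the metastases. Aqp1, at 180.0, 141 and 153 FPKM, made up most of the sum in each metastasis. Against the allografts, at 72.64, 135.0 and 78.59 FPKM, 1 transporter was called higher, where 13.3% of all genes were, and none lower.

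The receptor complex that retrieves filtered protein fell as a whole, to unequal degrees. All 6 listed genes were called lower, with a median change of -4.75, where 14.4% of all genes were called lower. Cubn, which encodes the receptor cubilin, stood at 205, 205 and 242 FPKM in the tubule and at 0.246, 0.285 and 0.297 FPKM in the metastases (log2 change -7.41 ± 0.61 (SE), adjusted p = 5.68e-06). Amn, the membrane anchor of cubilin, stood at 43.6, 43.1 and 51.5 FPKM and at 0.888, 0.605 and 0.252 FPKM (log2 change -4.91 ± 0.67 (SE), adjusted p = 0.00011). Lrp2, which encodes megalin, stood at 800.2, 839 and 917 FPKM and at 39.9, 33.1 and 30.4 FPKM (log2 change -4.60 ± 0.72 (SE), adjusted p = 0.000269). Megalin thus remained above 30 FPKM in each metastasis while its partner cubilin was below 0.3 FPKM. Folr1, a folate receptor, stood at 225, 257 and 274 FPKM and at 9.40, 3.39 and 4.12 FPKM (log2 change -5.35 ± 0.64 (SE), adjusted p = 5.1e-05), highest in metastasis 1. Dab2, the endocytic adaptor, changed by -1.99 and the endosomal chloride exchanger Clcn5 by -1.39 on the log2 scale.

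Metabolic enzymes of the tubule fell about as far as the transporters. Of 36 listed enzymes tested, 30 were called lower and none higher under FPKM and median-of-ratios scaling, with a median change of -6.29. The share of all genes called lower was 14.4% in FPKM and 26.8% after median-of-ratios scaling. Gpx3, the plasma glutathione peroxidase made in this segment, was the most abundant protein-coding gene of the nuclear genome in the tubule libraries, at 10812, 13229 and 14282 FPKM, and it stood at 79.8, 90.2 and 91.6 FPKM in the metastases (log2 change -7.17 ± 1.02 (SE), adjusted p = 0.000145). Miox, which opens the inositol ring, went from 2162, 2429 and 2583 FPKM to 0.0599, 0.0721 and 0 FPKM (log2 change -11.16 ± 1.38 (SE), adjusted p = 6.02e-05). Miox was thus abundant in every tubule library and below 0.3 FPKM in every metastasis. Hpd, an enzyme of tyrosine breakdown, stood at 529, 447 and 835 FPKM and at 0, 0.0517 and 0 FPKM (log2 change -9.16 ± 0.86 (SE), adjusted p = 1.17e-05). Hao2, a peroxisomal hydroxyacid oxidase, stood at 882, 1330.1 and 997 FPKM in the tubule libraries and was listed at 0 in all 3 metastases. The enzymes that were not called were Mep1b, Cyp4b1, Acsm3, Xpnpep2, Cyp2j13 and Ace. Ace, the angiotensin-converting enzyme, which lung capillaries carry as well, stood at 14.7, 16.2 and 15.03 FPKM in the tubule and at 27.3, 42.4 and 62.6 FPKM in the metastases. Agmat did not pass the filter. Fxyd2, a regulatory subunit of the sodium pump along the nephron, was among the 15 largest falls, from 2383, 2349.9 and 2568 FPKM to 1.54, 1.86 and 1.58 FPKM (log2 change -9.84 ± 0.81 (SE), adjusted p = 5.71e-06).

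The transcription factors that hold tubule identity were lower as well. All 10 listed factors were called lower under FPKM and median-of-ratios scaling, where 14.4% and 26.8% of all genes were. Their median was -3.81, and 6 of them were under 1 FPKM in every metastasis. Hnf4a stood at 203, 229 and 228 FPKM in the tubule and at 0.0696, 0.242 and 0.0641 FPKM in the metastases (log2 change -7.62 ± 0.76 (SE), adjusted p = 1.71e-05). Ppara, the receptor that drives fatty acid oxidation genes, stood at 39.5, 40.9 and 40.4 FPKM and at 0.542, 0.528 and 0.578 FPKM (log2 change -4.74 ± 0.63 (SE), adjusted p = 9.4e-05). Esrrg, an orphan receptor that acts on mitochondrial genes, stood at 24.3, 26.1 and 27.8 FPKM and at 0.483, 0.547 and 0.43 FPKM (log2 change -4.18 ± 0.33 (SE), adjusted p = 4.32e-06). The smallest falls on the list were those of Hnf4g, which changed by -1.98, and Esrra, which changed by -1.60 on the log2 scale.

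The promoter of Slc3a1, one of the transporter genes that fell, is shown because it holds a short match to the recognition sequence of HNF4A. It is the 250 bases upstream of the RefSeq transcription start on build GRCm38.p6, at chr17:85028097-85028346 on the + strand, with the match in capitals.
Slc3a1: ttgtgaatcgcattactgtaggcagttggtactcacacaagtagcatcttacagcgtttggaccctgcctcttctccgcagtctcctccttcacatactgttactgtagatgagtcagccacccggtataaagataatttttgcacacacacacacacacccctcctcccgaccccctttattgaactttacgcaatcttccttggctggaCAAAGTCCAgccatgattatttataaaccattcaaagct
The letters CAAAGTCCA were searched on both strands of a window from 250 bases before to 50 bases after the start, and the match shown overlaps no other motif searched. Of 16313 genes tested, 12017 were matched by symbol to a RefSeq promoter. The letters were in 0.558% of these promoters, in 0.875% of those of the 1828 genes called lower and in 0.578% of those of the 6397 called higher. Among the 144 genes that fell by more than 5 on the log2 scale, a split chosen after the values were seen, 7 promoters (4.86%) held them, those of Slc3a1, Pdzk1, Nat8, Pipox, Aadat, Agxt2 and Aspdh. Across all 32851 RefSeq promoters the share was 0.475%. A match describes the letters and not a bound site. Among the other genes with large falls, Cltrn, which encodes collectrin, a partner of amino acid transporters, stood at 918, 1172 and 1305 FPKM in the tubule and at 0.31, 0 and 0.0602 FPKM in the metastases (log2 change -9.97 ± 0.92 (SE), adjusted p = 1.12e-05), and G6pc, glucose-6-phosphatase, at 348, 254 and 291 FPKM and 0, 0 and 0.0607 FPKM (log2 change -8.18 ± 1.31 (SE), adjusted p = 0.0003).

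Markers of nephron segments beyond the proximal tubule were also lower in the metastases. Of 18 listed genes, 14 were called lower and 2 higher on the FPKM scale, and 15 lower and 1 higher after median-of-ratios scaling. The shares of all genes were 14.4%, 54%, 26.8% and 37.4% in that order. Umod, which encodes uromodulin of the thick ascending limb, stood at 159, 264 and 271 FPKM in the sorted tubule cells and at 0.0409, 0.0739 and 0.0523 FPKM in the metastases (log2 change -7.74 ± 0.76 (SE), adjusted p = 1.54e-05). Slc12a1, the cotransporter NKCC2 of the same segment, stood at 44.7, 75.7 and 90.5 FPKM and at 0.0594, 0.0922 and 0.0506 FPKM (log2 change -6.003 ± 0.86 (SE), adjusted p = 0.000147). The sorted cells thus carried RNA of the thick ascending limb, at levels well below those of Slc34a1 or Miox. Trpm6, a magnesium channel, was called higher under both scalings, at 10.3, 9.09 and 10.1 FPKM against 0.918, 1.58 and 2.61 FPKM (log2 change 2.05 ± 0.28 (SE), adjusted p = 0.000103). Scnn1b, a subunit of the epithelial sodium channel that airway cells also use, stood at 13.3, 16.7 and 18.3 FPKM against 6.01, 7.28 and 7.81 FPKM and was called on the FPKM scale only (log2 change 1.09 ± 0.43 (SE), adjusted p = 0.0446).

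Factors that specify the renal lineage split in both directions. Of 11 listed genes tested, 6 were called lower and 3 higher under FPKM and median-of-ratios scaling, with a median of -1.10. In FPKM 14.4% of all genes were lower and 54% higher, and after median-of-ratios scaling 26.8% and 37.4%. Pax8, which marks renal epithelium and its tumors, kept 25.3, 15.9 and 13.6 FPKM in the metastases against 44.2, 37.5 and 35.5 FPKM in the tubule (log2 change -1.10 ± 0.30 (SE), adjusted p = 0.00845). Pax2, its paralog, stood at 2.75, 1.67 and 2.19 FPKM against 9.66, 10.8 and 8.07 FPKM (log2 change -1.72 ± 0.53 (SE), adjusted p = 0.0139). Both genes were detected in every metastasis, and the groups did not overlap. Sall1, a zinc finger factor of the kidney, stood at 0.458, 0.516 and 0.451 FPKM against 27.9, 23.5 and 25.7 FPKM (log2 change -4.17 ± 0.25 (SE), adjusted p = 8.65e-07). Lhx1, of the early nephron, changed by -2.38, Emx2 by -1.93 and Emx1 by -4.01 on the log2 scale. The higher genes included Osr1 and Eya1, which act in the embryonic mesenchyme from which nephrons arise. Osr1 stood at 4.99, 5.06 and 5.05 FPKM against 0.585, 1.83 and 0.822 FPKM (log2 change 1.58 ± 0.46 (SE), adjusted p = 0.0105), and Eya1 at 2.603, 1.93 and 1.62 FPKM against 0.19, 0.0408 and 0.0441 FPKM (log2 change 1.47 ± 0.29 (SE), adjusted p = 0.00113). Neither of the genes Wt1 and Gata3 was called, and Six2 did not pass the filter. The kidney cadherin Cdh16 stood at 288, 324 and 345 FPKM in the tubule and at 62.3, 20.1 and 20.9 FPKM in the metastases (log2 change -3.37 ± 0.63 (SE), adjusted p = 0.000794), again highest in metastasis 1.

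Hox genes, which record position along the body axis, were lower in the metastases at the posterior end of the clusters. Of 13 posterior genes (paralog groups 7 to 11), 8 were called lower and none higher on the FPKM scale and 10 lower after median-of-ratios scaling, with medians of -1.22 and -1.73. In FPKM 14.4% of all genes were lower and 54% higher, and after median-of-ratios scaling 26.8% and 37.4%. Hoxd8 showed the largest fall, from 26.7, 36.1 and 34.7 FPKM to 2.75, 1.59 and 1.96 FPKM (log2 change -3.44 ± 0.30 (SE), adjusted p = 7.9e-06). Hoxc10 went from 8.07, 10.03 and 6.24 FPKM to 1.405, 0.897 and 0.952 FPKM (log2 change -2.11 ± 0.33 (SE), adjusted p = 0.000263), and Hoxd10 from 1.98, 2.42 and 1.36 FPKM to 0.0298, 0.0718 and 0.0761 FPKM (log2 change -1.45 ± 0.22 (SE), adjusted p = 0.000201). The levels of the tubule libraries and of the metastases did not overlap for any of these 3 genes, which were chosen with results known. Of the 13 posterior genes 12 were called lower than in the primary tumors, where 9.59% of all genes were, and against the allografts 9 were, where 10.4% of all genes were. The primary tumors held 7.71, 8.69 and 12.4 FPKM of Hoxd10 and the allografts 5.798, 9.25 and 7.13 FPKM. The 3 comparisons share the metastasis libraries. Of 14 anterior genes tested, 3 were called higher and 3 lower on the FPKM scale, and 1 higher and 5 lower after median-of-ratios scaling. Hoxa5, the anterior gene active in lung mesenchyme, stood at 6.45, 8.15 and 7.94 FPKM and 7.16, 6.97 and 6.33 FPKM with overlapping libraries (log2 change 0.12 ± 0.29 (SE), adjusted p = 0.732). Hoxd4 was the anterior gene that fell most, from 4.75, 3.62 and 3.27 FPKM to 0.516, 0.298 and 0.237 FPKM (log2 change -1.85 ± 0.27 (SE), adjusted p = 0.000166).

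**Figure D3:**
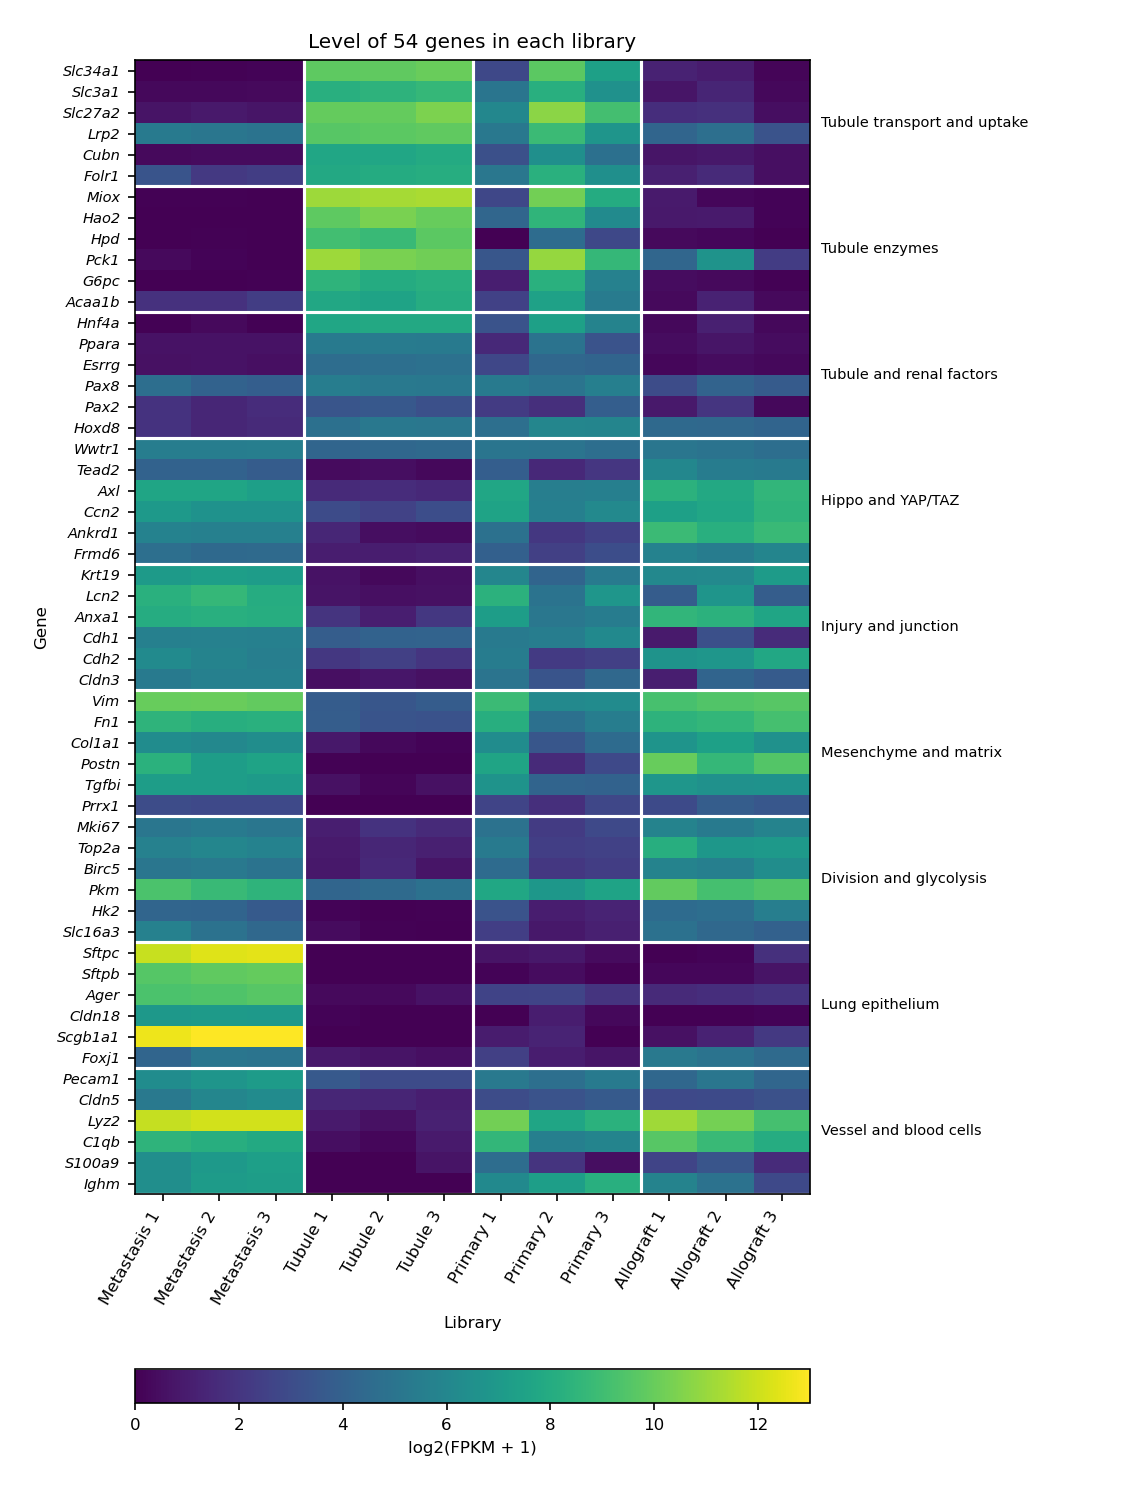
Level of 54 named genes (vertical axis, 9 groups of 6) in each of the 12 libraries (horizontal axis), with color giving log2(FPKM + 1) from 0 to 13. Genes of the tubule transport and enzyme groups are darker in the metastasis columns than in the tubule columns, and lung epithelium genes are brighter, to unequal degrees.

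Changes in genes of the Hippo pathway were mostly small, and many calls depended on the scaling. Of 18 kinases and adaptors, 12 were called higher and 1 lower on the FPKM scale, with a median of 1.17, and 9 higher and 5 lower after median-of-ratios scaling, with a median of 0.60. Of all genes, 54% were higher and 14.4% lower on the FPKM scale and 37.4% and 26.8% after median-of-ratios scaling. In TPM the median was 0.16. Frmd6, an upstream scaffold, stood at 25.5, 20.6 and 21.2 FPKM in the metastases and at 1.08, 1.05 and 1.33 FPKM in the tubule (log2 change 3.44 ± 0.31 (SE), adjusted p = 1.08e-05). Amotl1, an angiomotin that holds YAP at junctions, stood at 15.9, 13.9 and 14.2 FPKM and at 1.498, 1.497 and 1.47 FPKM (log2 change 2.65 ± 0.20 (SE), adjusted p = 3.87e-06). Wwc1, the scaffold KIBRA, was the called fall, from 72.3, 70.1 and 79.1 FPKM to 41.7, 28.99 and 30.4 FPKM (log2 change -1.13 ± 0.28 (SE), adjusted p = 0.00417). Lats1 changed by -0.27 with an adjusted p of 0.125, and by -0.83 (adjusted p = 0.000824) after median-of-ratios scaling. Lats2, itself a YAP target, changed by 0.95 with an adjusted p of 0.00141, and by 0.38 (adjusted p = 0.14) after median-of-ratios scaling and -0.06 (adjusted p = 0.886) in TPM. Of the coactivators, Wwtr1, which encodes TAZ, stood at 43.8, 44.2 and 46.7 FPKM against 17.7, 19.6 and 20.4 FPKM (log2 change 1.18 ± 0.15 (SE), adjusted p = 6.63e-05), with a change of 0.60 (adjusted p = 0.00424) after median-of-ratios scaling. Yap1 stood at 26.4, 24.6 and 25.3 FPKM against 18.9, 18.9 and 18.9 FPKM, groups that did not overlap, and was not called (log2 change 0.41 ± 0.24 (SE), adjusted p = 0.157). Its call turned with the fit: it was higher in a limma fit of the 2 groups alone (adjusted p = 0.00082) and with array weights (adjusted p = 0.00205). It was lower, with a change of -0.16, after median-of-ratios scaling and fitting of the 6 libraries alone (limma, adjusted p = 0.0385). Among the TEAD partners, Tead2 stood at 16.3, 15.9 and 12.9 FPKM against 0.32, 0.387 and 0.23 FPKM (log2 change 3.61 ± 0.49 (SE), adjusted p = 0.000104), and Tead4 at 3.52, 2.73 and 3.65 FPKM against 0.598, 0.38 and 0.323 FPKM (log2 change 1.58 ± 0.21 (SE), adjusted p = 8.33e-05). Tead1 was at 12.7, 12.4 and 13.2 FPKM against 19.7, 19.3 and 17.2 FPKM, not called in FPKM and lower after median-of-ratios scaling, and Tead3 was called under neither. Vgll3, a TEAD cofactor, rose from 0.218, 0.223 and 0.181 FPKM to 13.6, 11.7 and 11.3 FPKM (log2 change 3.45 ± 0.47 (SE), adjusted p = 0.000106).

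Genes listed as targets of YAP and TAZ moved unequally. Of 22 targets, 17 were called higher and 1 lower on the FPKM scale, and 11 higher and 2 lower after median-of-ratios scaling, beside the same shares of all genes. Their median was 1.40 in FPKM, 0.82 after median-of-ratios scaling and 0.37 in TPM, beside 0.68, 0.20 and -0.18 for all genes. Axl, a receptor tyrosine kinase, stood at 201, 198 and 159 FPKM in the metastases and at 1.88, 2.09 and 1.79 FPKM in the tubule (log2 change 5.99 ± 0.47 (SE), adjusted p = 4.42e-06). Ankrd1, a nuclear ankyrin repeat protein, stood at 53.3, 48.8 and 49.7 FPKM and at 1.59, 0.376 and 0.307 FPKM (log2 change 4.95 ± 0.59 (SE), adjusted p = 4.86e-05). Ccn2, a secreted matricellular protein also called CTGF, stood at 125, 99.2 and 97.4 FPKM and at 6.78, 4.93 and 7.297 FPKM (log2 change 3.89 ± 0.43 (SE), adjusted p = 3.23e-05). For these 3 targets each metastasis exceeded each tubule library more than 10 times over. Ccn1, or CYR61, did not follow: it stood at 148, 158 and 152 FPKM in the metastases and at 344, 248 and 131 FPKM in the tubule, with overlapping libraries (log2 change -0.55 ± 0.49 (SE), adjusted p = 0.338). Nuak2, a kinase, was the called fall, from 48.5, 62.5 and 55.5 FPKM to 17.98, 13.96 and 13.6 FPKM (log2 change -1.81 ± 0.23 (SE), adjusted p = 6.47e-05). Of the 22 targets 5 were called higher than in the primary tumors and none lower, where 11.3% and 9.59% of all genes were. Against the allografts 3 were called higher and 1 lower, where 13.3% and 10.4% of all genes were. The 1 lower was Ankrd1, at 462, 294 and 442 FPKM in the allografts (log2 change -2.93 ± 0.59 (SE), adjusted p = 0.00543).

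The upstream bases of Ankrd1 and Axl are shown because both genes rose and hold the letters GGAATG, the core recognized by TEAD factors, in capitals. They are the 250 bases before the RefSeq start on GRCm38.p6, at chr19:36119845-36120094 and chr7:25788734-25788983, both on the - strand and printed in the direction of transcription.
Ankrd1: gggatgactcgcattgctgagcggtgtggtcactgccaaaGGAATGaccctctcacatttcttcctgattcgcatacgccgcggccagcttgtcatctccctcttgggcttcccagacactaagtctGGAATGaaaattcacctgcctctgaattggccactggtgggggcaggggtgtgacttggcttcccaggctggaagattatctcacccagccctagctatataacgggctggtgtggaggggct
Axl: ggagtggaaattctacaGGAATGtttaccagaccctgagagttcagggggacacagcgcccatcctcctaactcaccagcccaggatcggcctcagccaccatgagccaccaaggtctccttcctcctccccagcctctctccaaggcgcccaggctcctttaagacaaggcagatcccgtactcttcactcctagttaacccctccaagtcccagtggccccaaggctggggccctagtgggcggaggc
These 6 letters are common: 14.9% of the 12017 promoters of tested genes and 14.7% of all 32851 RefSeq promoters held them on either strand within the 300-base window. They were in 7 (46.7%) of the 15 promoters of listed targets that could be matched, namely those of Ccn1, Lats2, Crim1, Amotl2, Ptpn14, Ankrd1 and Axl. Ccn1, which was not called, is among them. Of the genes called lower 16.6% held the letters and of those called higher 14.6%. The matches overlap no other motif searched in the 2 promoters shown.

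Markers of injured and regenerating tubules were mostly higher. Of 18 listed genes, 11 rose and 2 fell under both scalings, with medians of 2.79 in FPKM and 2.23 after median-of-ratios scaling. The medians of all genes were 0.68 and 0.20. In FPKM 54% of all genes were called higher and 14.4% lower, and the counts of the list are near those shares. After median-of-ratios scaling 37.4% of all genes were higher and 26.8% lower. Lcn2, which encodes the iron-binding protein NGAL, stood at 307, 402 and 268 FPKM in the metastases and at 0.6, 0.463 and 0.501 FPKM in the tubule (log2 change 7.73 ± 0.88 (SE), adjusted p = 3.57e-05). Krt19, a simple keratin that airway and duct cells also make, stood at 135, 153 and 144 FPKM and at 0.528, 0.206 and 0.444 FPKM (log2 change 6.71 ± 0.41 (SE), adjusted p = 1.11e-06). Anxa1, a phospholipid-binding protein, stood at 267, 291 and 272 FPKM and at 2.84, 1.15 and 3.32 FPKM (log2 change 6.40 ± 0.49 (SE), adjusted p = 3.75e-06). Cd44, the hyaluronan receptor, which leukocytes share, stood at 49.5, 55.6 and 53.9 FPKM and at 0.372, 0.357 and 0.348 FPKM (log2 change 5.31 ± 0.53 (SE), adjusted p = 1.72e-05). These 4 genes, chosen with results of these data known, were above every tubule library in every metastasis. Havcr1, which encodes the injury marker KIM-1, was not called, at 2.08, 1.54 and 1.48 FPKM against 0.579, 0.79 and 1.05 FPKM, and neither was Spp1, osteopontin, at 741, 768 and 502 FPKM against 1170.0, 917 and 1051 FPKM. The keratin Krt18 rose (log2 change 3.85 ± 0.29 (SE), adjusted p = 3.46e-06), while its partner Krt8 stood at 114, 117 and 98.9 FPKM and 102, 75.1 and 52.3 FPKM with overlapping libraries (log2 change 0.57 ± 0.23 (SE), adjusted p = 0.0508). The falls were those of Prom1, the stem cell antigen CD133, from 84.4, 64.2 and 57.97 FPKM to 7.21, 11.9 and 11.6 FPKM (log2 change -2.65 ± 0.54 (SE), adjusted p = 0.00132), and of the integrin subunit Itgb6. Several of these markers are made by lung epithelium or blood cells too, and the share of each source was not tested.

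Epithelial junction genes were called in shares close to those of all genes. Of 21 listed genes tested, 10 were called higher and 3 lower on the FPKM scale, where 54% and 14.4% of all genes were, and 7 higher and 5 lower after median-of-ratios scaling, where 37.4% and 26.8% were, with medians of 0.96 and 0.50. Cdh1, which encodes E-cadherin, stood at 49.4, 51.4 and 49.95 FPKM in the metastases and at 13.4, 16.1 and 16.9 FPKM in the tubule (log2 change 1.65 ± 0.45 (SE), adjusted p = 0.00779), and was not called after median-of-ratios scaling (adjusted p = 0.0586). Cdh2, which encodes N-cadherin, stood at 72.9, 54.7 and 45.6 FPKM and at 3.28, 4.51 and 2.96 FPKM (log2 change 3.67 ± 0.71 (SE), adjusted p = 0.00101). Both cadherins were thus above the tubule range in every metastasis. Cldn3, a sealing claudin, stood at 40.02, 49.7 and 49.5 FPKM and at 0.446, 0.71 and 0.506 FPKM (log2 change 4.93 ± 0.68 (SE), adjusted p = 0.000122). Cldn2, the pore-forming claudin of the proximal tubule, fell from 192, 188 and 242 FPKM to 25.7, 15.1 and 13.3 FPKM (log2 change -3.50 ± 0.65 (SE), adjusted p = 0.000786). Against the allografts 12 of the 21 genes were called higher in metastases and 1 lower, where 13.3% and 10.4% of all genes were, and Cdh1 stood at 0.938, 7.87 and 2.01 FPKM there (log2 change 3.78 ± 0.45 (SE), adjusted p = 0.000239). Lung airway and alveolar cells express E-cadherin and claudins, and their part in these levels was not tested.

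All 11 listed regulators of mesenchymal fate were called higher under FPKM and median-of-ratios scaling, with a median of 2.30. The share of all genes called higher was 54% in FPKM and 37.4% after median-of-ratios scaling. Zeb1, a repressor of epithelial genes, stood at 28.5, 30.8 and 34.98 FPKM in the metastases and at 5.04, 2.84 and 3.84 FPKM in the tubule (log2 change 2.74 ± 0.21 (SE), adjusted p = 3.62e-06). Twist1, a helix-loop-helix factor, stood at 12.8, 8.96 and 7.21 FPKM and at 0.128, 0.318 and 0 FPKM (log2 change 3.19 ± 0.74 (SE), adjusted p = 0.00304). Tgfb3, a ligand of the TGF-beta receptors, stood at 47.6, 32.6 and 32.5 FPKM and at 0.172, 0.222 and 0.431 FPKM (log2 change 4.90 ± 0.66 (SE), adjusted p = 9.8e-05). Prrx1, a homeobox factor of connective tissue, stood at 7.05, 6.21 and 6.26 FPKM and at 0, 0.0327 and 0 FPKM (log2 change 2.89 ± 0.29 (SE), adjusted p = 1.66e-05). No metastasis overlapped the tubule range for any of these 4 genes, which were chosen with results of these data known. The fibroblast markers Pdgfra, at 22.7, 31.4 and 35.6 FPKM against 0.0894, 0.114 and 0.148 FPKM, and Mfap4, at 46.01, 65.4 and 85.1 FPKM against 0.282, 0 and 0 FPKM, moved the same way, and their share in the mesenchymal genes was not tested. Of 14 fibroblast and pericyte markers, 11 were called higher and 2 lower under both scalings. For all genes the lower calls were 14.4% in FPKM and 26.8% after median-of-ratios scaling.

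Matrix genes had the largest median rise of the lists that are not markers of a cell type. Of 28 listed genes, 27 were called higher on the FPKM scale and 25 after median-of-ratios scaling, with medians of 4.81 and 4.48 and none lower under either. The share of all genes called higher against the tubule was 54% in FPKM and 37.4% after median-of-ratios scaling. Postn, the matricellular protein periostin, stood at 310.3, 149.9 and 183 FPKM in the metastases and at 0.0683, 0 and 0 FPKM in the tubule (log2 change 7.65 ± 1.18 (SE), adjusted p = 0.000244). Col3a1, a fibrillar collagen chain, stood at 191, 214 and 261 FPKM and at 0.811, 0.237 and 0.454 FPKM (log2 change 7.22 ± 0.77 (SE), adjusted p = 2.45e-05). Tgfbi, a TGF-beta-induced matrix protein, stood at 147, 149 and 136 FPKM and at 0.52, 0.115 and 0.497 FPKM (log2 change 6.73 ± 0.54 (SE), adjusted p = 5.08e-06). Sparc, a collagen-binding protein, was the most abundant of the 28, at 710.4, 648 and 610.2 FPKM against 34.4, 27.2 and 23.99 FPKM (log2 change 4.49 ± 0.59 (SE), adjusted p = 8.36e-05). Fn1, fibronectin, stood at 351, 288 and 304 FPKM against 13.2, 9.52 and 8.58 FPKM (log2 change 4.80 ± 0.67 (SE), adjusted p = 0.000132). The 28 genes together summed to 3957, 3178 and 3205 FPKM in the metastases and to 221, 166 and 159.7 FPKM in the tubule. Compared with the primary tumors 13 were called higher and 1 lower in the metastases, where 11.3% and 9.59% of all genes were. Against the allografts 3 were higher and 2 lower, near the 13.3% and 10.4% of all genes. All 16 cytoskeletal genes of mesenchymal cells were called higher on the FPKM scale and 15 after median-of-ratios scaling, with a median of 4.18. Vim, vimentin, stood at 994, 1045 and 937 FPKM and at 13.01, 10.1 and 12.6 FPKM (log2 change 6.27 ± 0.58 (SE), adjusted p = 1.09e-05). S100a6, a calcium-binding protein, stood at 572, 389 and 353 FPKM and at 5.15, 4.32 and 5.28 FPKM (log2 change 6.18 ± 0.59 (SE), adjusted p = 1.26e-05).

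Genes of DNA replication and mitosis rose almost throughout. Of 28 listed genes, 27 were called higher under both scalings, with medians of 2.99 and 2.58, where 54% and 37.4% of all genes were. Mki67, which encodes the proliferation antigen Ki-67, stood at 33.4, 37.99 and 33.5 FPKM in the metastases and at 1.11, 2.699 and 1.94 FPKM in the tubule (log2 change 3.66 ± 0.54 (SE), adjusted p = 0.000172). Top2a, a topoisomerase of dividing cells, stood at 51.7, 60.96 and 53.3 FPKM and at 0.914, 1.62 and 1.24 FPKM (log2 change 4.65 ± 0.65 (SE), adjusted p = 0.000128). Birc5, survivin, stood at 33.4, 37.1 and 30.2 FPKM and at 0.761, 1.78 and 0.693 FPKM (log2 change 4.09 ± 0.54 (SE), adjusted p = 8.57e-05). The metastases stood above the tubule range for each of these 3 genes, which were chosen with results of these data known. The gene that did not follow was Tyms, thymidylate synthase, at 25.8, 31.3 and 29.7 FPKM against 35.2, 26.7 and 23.3 FPKM, which was not called in FPKM and was lower after median-of-ratios scaling. Of the 28 genes 25 were called higher than in the primary tumors, where 11.3% of all genes were, and Mki67 was at 28.7, 3.74 and 6.34 FPKM there (log2 change 1.83 ± 0.54 (SE), adjusted p = 0.0372). Primary tumors 2 and 3, which were low in Mki67, were high in tubule transporters, and the part of remaining tubule in this difference was not tested. Against the allografts none was called higher and 5 lower, where 13.3% and 10.4% of all genes were. The cyclin-dependent kinase inhibitors Cdkn2b and Cdkn1c rose as well, Cdkn2b from 0.559, 0.666 and 0.359 FPKM to 10.6, 9.14 and 8.79 FPKM (log2 change 2.78 ± 0.33 (SE), adjusted p = 4.65e-05) and Cdkn1c from 1.05, 0.829 and 0.832 FPKM to 9.302, 11.6 and 15.2 FPKM (log2 change 2.75 ± 0.28 (SE), adjusted p = 1.76e-05). Cdkn2a, which encodes p16INK4A and p19ARF, stood at 1.45, 0.913 and 1.02 FPKM in the metastases, was listed at 0 in all 3 tubule libraries, and was at 50.9, 24.2 and 54.1 FPKM in the allografts (log2 change -4.30 ± 0.27 (SE), adjusted p = 3.2e-06). Of 14 inhibitors and p53 targets, 11 were called higher and 1 lower on the FPKM scale, where 54% and 14.4% of all genes were, and 5 higher and 2 lower after median-of-ratios scaling, where 37.4% and 26.8% were. The share of higher calls after scaling is thus near that of all genes.

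Sugar metabolism changed in the enzymes specific to gluconeogenesis and in particular isoforms of glycolysis. Of 7 gluconeogenic genes, 6 were called lower under FPKM and median-of-ratios scaling, with a median of -7.76 in FPKM. The shares of all genes called lower were 14.4% and 26.8%. Pck1, the committed step of gluconeogenesis, stood at 2179, 1356 and 1171 FPKM in the tubule and at 0.274, 0.097 and 0 FPKM in the metastases (log2 change -10.40 ± 1.59 (SE), adjusted p = 0.000224). The mitochondrial isoform Pck2 was the exception, at 9.25, 9.93 and 7.99 FPKM against 4.24, 5.35 and 4.02 FPKM, called higher on the FPKM scale (log2 change 0.86 ± 0.22 (SE), adjusted p = 0.00521) and not after median-of-ratios scaling. Of 18 glycolytic genes, 11 were called higher and 1 lower on the FPKM scale, and 8 higher and 2 lower after median-of-ratios scaling, where 54%, 14.4%, 37.4% and 26.8% of all genes were in that order. Pkm, pyruvate kinase of muscle and tumors, stood at 636, 442 and 351 FPKM and at 17.7, 21.6 and 27.9 FPKM (log2 change 4.33 ± 0.30 (SE), adjusted p = 2.32e-06). Hk2, the inducible hexokinase, stood at 17.6, 16.97 and 11.7 FPKM and at 0.103, 0.0266 and 0.0575 FPKM (log2 change 3.93 ± 0.52 (SE), adjusted p = 8.85e-05). Slc16a3, the lactate exporter MCT4, stood at 50.5, 28.7 and 19.8 FPKM and at 0.319, 0.0625 and 0 FPKM (log2 change 4.82 ± 0.43 (SE), adjusted p = 8.78e-06). For these 3 genes, chosen with results of these data known, the metastases lay above the tubule throughout and metastasis 1 was highest. Pfkm, a phosphofructokinase isoform, was the called fall, from 16.3, 17.1 and 16.3 FPKM to 6.43, 5.098 and 3.97 FPKM (log2 change -1.53 ± 0.45 (SE), adjusted p = 0.0112). Gapdh, an enzyme shared by glycolysis and gluconeogenesis, was not called on the FPKM scale, at 1069.6, 923 and 677 FPKM against 1232, 1368 and 1441 FPKM (log2 change -0.62 ± 0.40 (SE), adjusted p = 0.19). Ldha, which makes lactate, stood at 497, 342 and 268 FPKM against 276, 235 and 269 FPKM (log2 change 0.46 ± 0.38 (SE), adjusted p = 0.295).

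Mitochondrial and peroxisomal fuel use was lower in the metastases at the level of RNA. Of 23 genes of fatty acid oxidation and peroxisomes, 21 were called lower on the FPKM scale and 23 after median-of-ratios scaling, with medians of -1.98 and -2.55. The share of all genes called lower was 14.4% in FPKM and 26.8% after median-of-ratios scaling. Acaa1b and Ehhadh, enzymes of peroxisomal oxidation, fell most: Ehhadh stood at 147, 123 and 154 FPKM in the tubule and at 2.11, 2.18 and 2.67 FPKM in the metastases (log2 change -5.42 ± 1.02 (SE), adjusted p = 0.000842). Cat, catalase, stood at 455, 476 and 549.9 FPKM and at 54.7, 55.7 and 58.04 FPKM (log2 change -3.11 ± 0.70 (SE), adjusted p = 0.00246). Of 21 nuclear genes for the respiratory chain and ATP synthase, 20 were called lower on the FPKM scale, with a narrow range of changes from -2.11 to -0.89. Sdha, the catalytic subunit of complex II, stood at 209, 246 and 262 FPKM and at 62.7, 61.96 and 61.9 FPKM (log2 change -1.92 ± 0.46 (SE), adjusted p = 0.00372). Against the primary tumors and against the allografts none of the 21 was called in either direction. The 7 protein-coding genes of the mitochondrial genome held in the table were all called lower, with a median of -5.74, and spread widely: mt-Co1 changed by -2.99 and mt-Nd4 by -6.84 on the log2 scale. The tubule columns hold far more mitochondrial RNA than any tumor column, and whether part of this follows from library preparation was not tested.

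Immediate early genes, which respond within minutes to handling and to growth factors, did not share a direction. Of 19 listed genes tested, 3 were called higher and 5 lower on the FPKM scale, and 2 higher and 8 lower after median-of-ratios scaling, where 54%, 14.4%, 37.4% and 26.8% of all genes were in that order. Fosb stood at 212, 138 and 68.1 FPKM in the tubule and at 0.483, 3.62 and 5.26 FPKM in the metastases (log2 change -5.18 ± 0.73 (SE), adjusted p = 0.000134), and Egr1 at 91.3, 76.6 and 44.1 FPKM and 4.89, 8.26 and 7.58 FPKM (log2 change -3.14 ± 0.33 (SE), adjusted p = 2.27e-05). Fos stood at 397, 252 and 155 FPKM and at 16.8, 48.8 and 61.7 FPKM (log2 change -2.71 ± 0.66 (SE), adjusted p = 0.00395). Socs3, an inhibitor of cytokine signaling, rose from 5.97, 4.899 and 3.94 FPKM to 47.4, 52.7 and 55.7 FPKM (log2 change 3.17 ± 0.54 (SE), adjusted p = 0.000464). Fosb varied more than 10-fold between metastases and was lowest in metastasis 1, and the labels do not give the time between dissection and lysis.

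Antigen presentation and interferon response genes were higher in the metastases without exception on the FPKM scale. All 15 antigen presentation genes and all 16 interferon response genes were called higher, with medians of 2.99 and 2.90, and 15 of each after median-of-ratios scaling. The share of all genes called higher was 54% in FPKM and 37.4% after median-of-ratios scaling. B2m, the light chain of class I molecules, stood at 1874, 2439 and 2184 FPKM and at 295, 272 and 286 FPKM (log2 change 2.92 ± 0.37 (SE), adjusted p = 6.87e-05). H2-Aa, a class II chain of antigen-presenting cells, stood at 442, 402 and 519 FPKM and at 9.81, 7.73 and 11.9 FPKM (log2 change 5.41 ± 0.52 (SE), adjusted p = 1.43e-05). Isg15, a ubiquitin-like protein induced by interferon, stood at 45.01, 72.7 and 65.4 FPKM and at 1.77, 0.274 and 1.19 FPKM (log2 change 4.95 ± 0.67 (SE), adjusted p = 0.000106). All 17 macrophage markers rose as well, their sum going from 9.67, 9.83 and 9.21 FPKM in the tubule to 5774, 6414 and 6016 FPKM in the metastases, and the part of infiltrating cells in these genes was not tested. None of the 15 antigen presentation genes was called in either direction against the primary tumors.

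**Figure D4:**
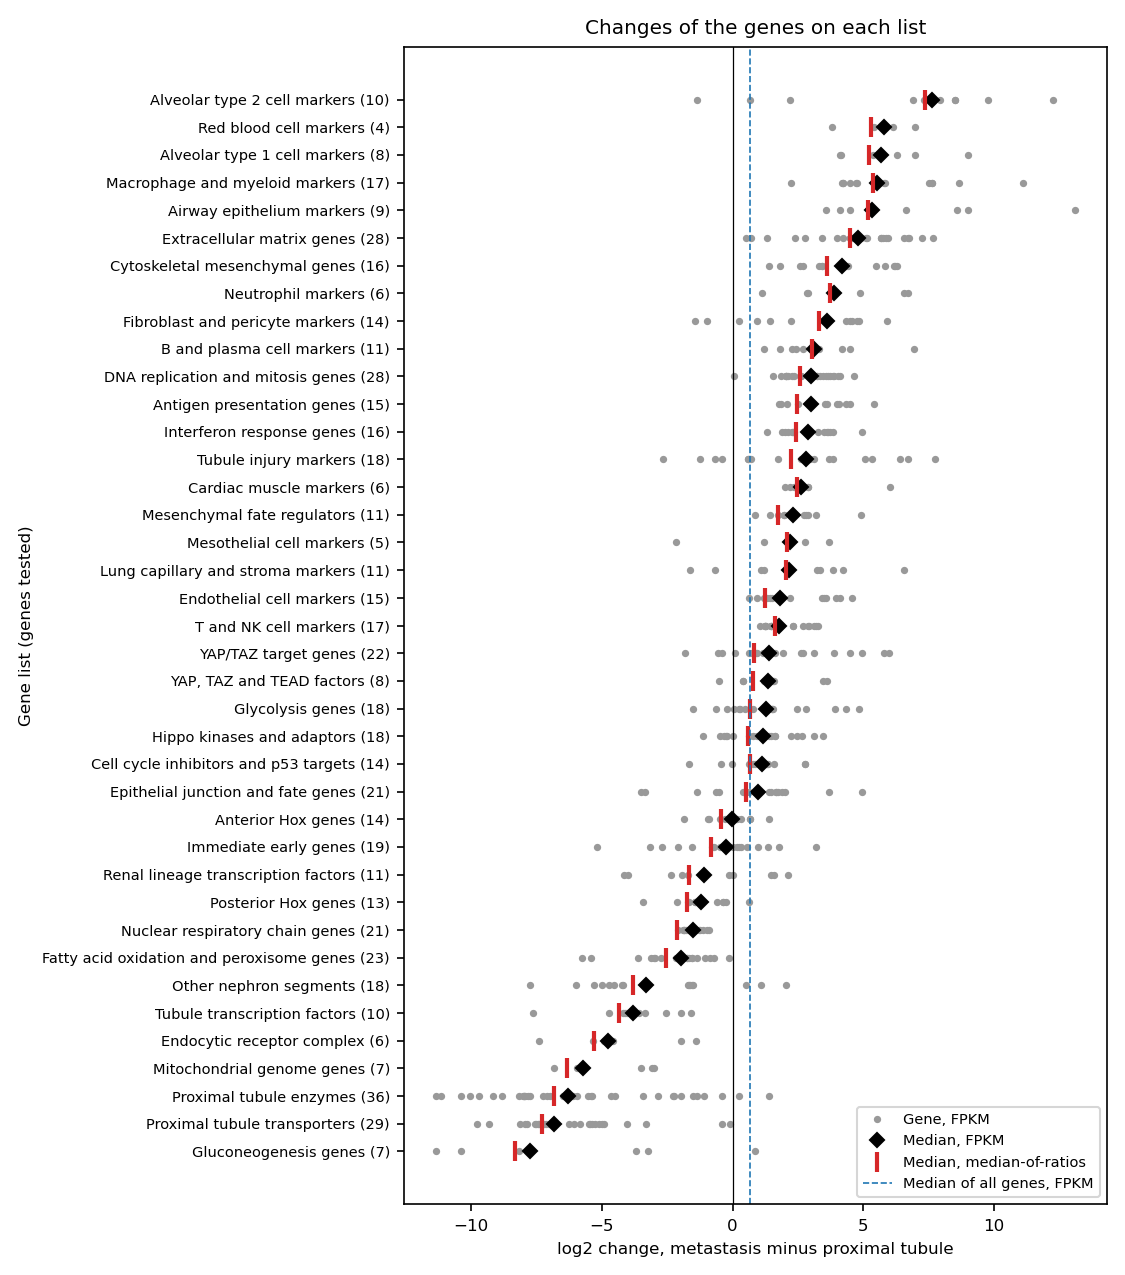
Log2 change of metastases minus proximal tubule (horizontal axis) for the tested genes of 39 lists (vertical axis, number of genes in brackets). Points are genes in FPKM, diamonds are list medians in FPKM and red bars are medians after median-of-ratios scaling, and the dashed line is the median of all genes, 0.68. Alveolar type 2 markers have the highest median, 7.63, and gluconeogenesis genes the lowest, -7.76.

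Lung epithelial genes were abundant in every metastasis. Scgb1a1, the secretoglobin of airway club cells, was the most abundant protein-coding gene of the metastases, at 6438, 9267 and 11197 FPKM, and was listed at 0 in all 3 tubule libraries (adjusted p = 1.12e-08). Sftpc, surfactant protein C of alveolar type 2 cells, stood at 3851, 5344 and 5694 FPKM, and Sftpb, surfactant protein B, at 769, 900.5 and 970.0 FPKM, and both were listed at 0 in the tubule libraries. Ager, the receptor that marks alveolar type 1 cells, stood at 627, 690.2 and 787 FPKM against 0.277, 0.242 and 0.559 FPKM (log2 change 9.01 ± 0.21 (SE), adjusted p = 1.03e-09), and Cldn18 at 122, 133 and 129 FPKM against 0.0737, 0 and 0 FPKM (log2 change 6.98 ± 0.23 (SE), adjusted p = 1.14e-08). Foxj1, the factor of ciliated cells, stood at 18.01, 33.4 and 31.3 FPKM against 0.836, 0.591 and 0.433 FPKM (log2 change 4.10 ± 0.41 (SE), adjusted p = 1.76e-05). Of 10 alveolar type 2 markers, 9 were called higher and 1 lower on the FPKM scale, where 54% and 14.4% of all genes were. All 8 alveolar type 1 markers and all 9 airway markers tested were called higher under both scalings, beside 54% and 37.4% of all genes. In all 3 tubule libraries 5 listed type 1 markers and 8 listed airway markers were under 1 FPKM, so these counts follow in part from the filter. The type 2 marker called lower was Abca3, a lipid transporter of type 2 cells that the tubule also expressed, at 129, 179.8 and 201 FPKM against 59.3, 66.6 and 68.2 FPKM (log2 change -1.36 ± 0.46 (SE), adjusted p = 0.0233). Nkx2-1, the transcription factor of lung epithelium, stood at 12.2, 15.8 and 16.4 FPKM against 2.22, 2.43 and 2.56 FPKM (log2 change 2.20 ± 0.53 (SE), adjusted p = 0.00369). Slc34a2, the phosphate cotransporter of type 2 cells and paralog of the tubule gene Slc34a1, stood at 308, 348 and 381 FPKM in the metastases and at 0.888, 1.01 and 1.63 FPKM in the tubule (log2 change 7.32 ± 0.43 (SE), adjusted p = 7.73e-07). Slc34a1 was thus the higher of the paralogs in the tubule and Slc34a2 in the metastases, and the part of lung cells in the Slc34a2 level was not tested. Lung genes were lower in most other tumors: the primary tumors held 0.583, 0.809 and 0.308 FPKM of Sftpc and the allografts 0, 0.0884 and 2.501 FPKM. Foxj1 was at 37.5, 30.4 and 21.7 FPKM in the allografts (log2 change -0.13 ± 0.41 (SE), adjusted p = 0.875), and Nkx2-1 at 0.763, 1.29 and 9.33 FPKM, highest in allograft 3. Ager was at 5.19, 5.35 and 2.94 FPKM in the primary tumors, where the type 1 markers summed to 30.6 to 102.9 FPKM and the type 2 markers to 54.3 to 139.8 FPKM.

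Vascular, stromal and blood cell genes were higher too. All 15 endothelial markers were called higher on the FPKM scale and 9 after median-of-ratios scaling, with medians of 1.79 and 1.23. The share of all genes called higher was 54% in FPKM and 37.4% after median-of-ratios scaling. Cldn5, the claudin of endothelium, stood at 36.6, 61.3 and 75.5 FPKM against 1.63, 1.5002 and 1.15 FPKM (log2 change 4.55 ± 0.27 (SE), adjusted p = 8.28e-07). Gpihbp1, the anchor of lipoprotein lipase on capillaries, stood at 107, 125 and 143 FPKM against 0, 0.508 and 0.549 FPKM (log2 change 6.56 ± 0.33 (SE), adjusted p = 2.74e-07). Ramp2, a partner of the adrenomedullin receptor, rose least (log2 change 0.64 ± 0.20 (SE), adjusted p = 0.0161), was not called after median-of-ratios scaling and had a change of -0.42 (adjusted p = 0.249) in TPM. All 17 macrophage markers, all 17 T and NK cell markers and all 11 B and plasma cell markers that passed the filter were called higher under both scalings. Under 1 FPKM in all 3 tubule libraries were 12 macrophage markers, all 19 listed T and NK cell markers and all 11 B and plasma cell markers. Such genes passed the filter through tumor libraries and had little room to be called lower, so these counts are not a test. Lyz2, the lysozyme of macrophages and type 2 cells, stood at 3678, 4493 and 4363 FPKM against 0.911, 0.525 and 1.32 FPKM (log2 change 11.10 ± 0.62 (SE), adjusted p = 6.08e-07). Marco, a receptor of alveolar macrophages, stood at 23.1, 70.7 and 50.1 FPKM and was listed at 0 in all 3 tubule libraries. S100a8, a calprotectin subunit of neutrophils, stood at 101, 177 and 216 FPKM against 1.29, 0 and 1.08 FPKM (log2 change 6.55 ± 0.75 (SE), adjusted p = 3.9e-05). Ighm, the immunoglobulin heavy chain of B cells, stood at 85.03, 139 and 149 FPKM and was listed at 0 in the tubule. Myh6, a myosin of heart muscle, which in mice extends along the pulmonary veins, stood at 69.4, 68.5 and 99.5 FPKM against 0.244, 0.142 and 0.282 FPKM (log2 change 6.01 ± 0.33 (SE), adjusted p = 5.8e-07). Ptprc, the pan-leukocyte antigen CD45, was at 0.353, 0.0914 and 0.331 FPKM in the sorted tubule libraries against 83.7, 87.9 and 104 FPKM in the metastases. Red blood cell markers summed to 32.2 to 48.3 FPKM in the tubule libraries and to 1802 to 4913 FPKM in the metastases.

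Set against all 3 other groups at once, 806 genes (4.94%) were called higher in the metastases than in each of them, and 44 (0.27%) lower than in each. The counts were 786 (4.82%) and 56 (0.343%) after median-of-ratios scaling, and the 3 comparisons share the metastasis libraries. Of the 806 genes, 241 were under 1 FPKM in all 9 other libraries. The highest of them included Scgb1a1, Sftpc, Sftpb, Scgb3a2 and Retnla, a secreted protein of lung epithelium and macrophages, at 1224, 2658 and 1654 FPKM in the metastases. All 8 alveolar type 1 markers were among the 806, as were 9 of 10 type 2 markers, 8 of 9 airway markers, 8 of 15 endothelial markers and 5 of 11 lung capillary and stroma markers. The direct comparisons called 1849 genes (11.3%) higher and 1565 (9.59%) lower than in the primary tumors, and 2169 (13.3%) higher and 1703 (10.4%) lower than in the allografts. These counts depend on single libraries. Against the primary tumors the higher and lower calls numbered 3299 and 2969 without primary tumor 1, 1010 and 986 without primary tumor 2, and 962 and 773 without primary tumor 3. They numbered 1106 and 817, 849 and 705, and 875 and 742 without metastasis 1, 2 and 3 in that order. The lower calls against the allografts numbered 1031, 826 and 820 without metastasis 1, 2 and 3 and 1022 without allograft 1. Calls higher than each other group numbered 540 without metastasis 3. Calls lower than each other group numbered 29, 16 and 17 without metastasis 1, 2 and 3 and 123 without primary tumor 1.

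Some genes of the tumor lists were also called above each other group. Wwtr1 was one: the primary tumors held 32.6, 30.8 and 25.3 FPKM and the allografts 33.9, 30.1 and 25.3 FPKM (changes of 0.60, adjusted p = 0.0201, and 0.59, adjusted p = 0.0171). Snai1, a mesenchymal regulator, stood at 4.47, 4.16 and 3.12 FPKM against 0.347, 0.369 and 0.0993 FPKM in the tubule, with changes of 0.90 against the primary tumors (adjusted p = 0.0465) and 0.93 against the allografts (adjusted p = 0.0372). Foxf2, listed as a YAP target and made in lung mesenchyme, stood at 2.01, 3.31 and 3.34 FPKM and was listed at 0 in the tubule. Cnn1, a calponin of smooth muscle, stood at 37.3, 28.7 and 34.04 FPKM against 0.713, 0.475 and 0.685 FPKM in the tubule (log2 change 4.40 ± 0.58 (SE), adjusted p = 8.68e-05). Each of these genes is also expressed in lung stroma, vessels or airways, and that share was not tested.

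The genes lower in metastases than in each other group were few, and 6 posterior Hox genes were among the 44: Hoxd8, Hoxc10, Hoxa9, Hoxd10, Hoxd9 and Hoxc9, with the anterior gene Hoxd4. Of Hoxd8 the primary tumors held 26.3, 61.8 and 59.8 FPKM and the allografts 20.8, 20.4 and 17.02 FPKM, against 2.75, 1.59 and 1.96 FPKM in the metastases (changes of -3.94, adjusted p = 1.36e-05, and -2.73, adjusted p = 0.000141). Car12, a membrane carbonic anhydrase, stood at 112, 117 and 113 FPKM in the tubule, at 10.99, 133 and 50.1 FPKM in primary tumors, at 14.4, 24.4 and 39.5 FPKM in the allografts and at 2.65, 2.01 and 1.26 FPKM in the metastases. Its change was -5.30 against the tubule (adjusted p = 8.63e-05), -3.90 against the primary tumors (adjusted p = 0.00374) and -3.11 against the allografts (adjusted p = 0.00927). Gstm5, a glutathione transferase, stood at 9.95, 8.42 and 8.103 FPKM in the metastases and at 98.7, 153 and 152 FPKM in the tubule (log2 change -3.77 ± 0.52 (SE), adjusted p = 0.000116). Npl, which breaks down sialic acid, stood at 4.26, 4.18 and 4.07 FPKM and at 43.1, 43.6 and 44.1 FPKM (log2 change -3.11 ± 0.53 (SE), adjusted p = 0.000432). Rgs5, a marker of pericytes, stood at 18.8, 4.34 and 6.48 FPKM and at 22.5, 23.9 and 25.5 FPKM (log2 change -1.43 ± 0.43 (SE), adjusted p = 0.0131), highest in metastasis 1. The share of lung RNA in the metastases was not measured.

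The 3 metastases were alike in most genes and differed in a set of lung and kidney genes. Among the 7531 genes at a mean of 10 FPKM or more in them, the median range of log2(FPKM + 1) over the 3 libraries was 0.18, and 7 genes ranged over more than 2. Those were Reg3g, Trpt1, Art3, Hexdc, Il17rb, Tmem100 and Inmt. Reg3g, an antimicrobial lectin of airway epithelium, stood at 59.6, 4.596 and 11.1 FPKM. Tmem100, of lung vessels, stood at 7.47, 16.9 and 35.9 FPKM, and Inmt, a methyltransferase of lung stroma, at 71.8, 127 and 313 FPKM. Metastasis 1 had the lowest summed level of several lung and blood lists: 5888 FPKM of alveolar type 2 markers against 7906 and 8377, 534 FPKM of endothelial markers against 758 and 897, and 1802 FPKM of red cell markers against 4472 and 4913. It had the highest sum of renal lineage factors, 47.4 FPKM against 34.1 and 31.2, of posterior Hox genes, 46.6 FPKM against 30.6 and 26.5, and of glycolytic genes, 4842 FPKM against 3446 and 2633. Other kidney lists did not share a direction. Tubule transporters were highest in metastasis 1, at 228.4 FPKM against 187.3 and 194.8. Tubule enzymes were lowest there, at 150.2 FPKM against 211.0 and 291.5, as were other nephron segments, at 40.26 FPKM against 49.22 and 48.56. The YAP and TAZ targets summed to 1304 FPKM in metastasis 1 and to 1090 and 1005 FPKM in the others. In the tubule libraries the same sums were 120.1, 110.0 and 112 FPKM for the lineage factors and 98.7, 111 and 96.4 FPKM for the posterior Hox genes, above each metastasis. Leaving out metastasis 1 gave 8098 higher and 2002 lower calls against the tubule.

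**Figure D5:**
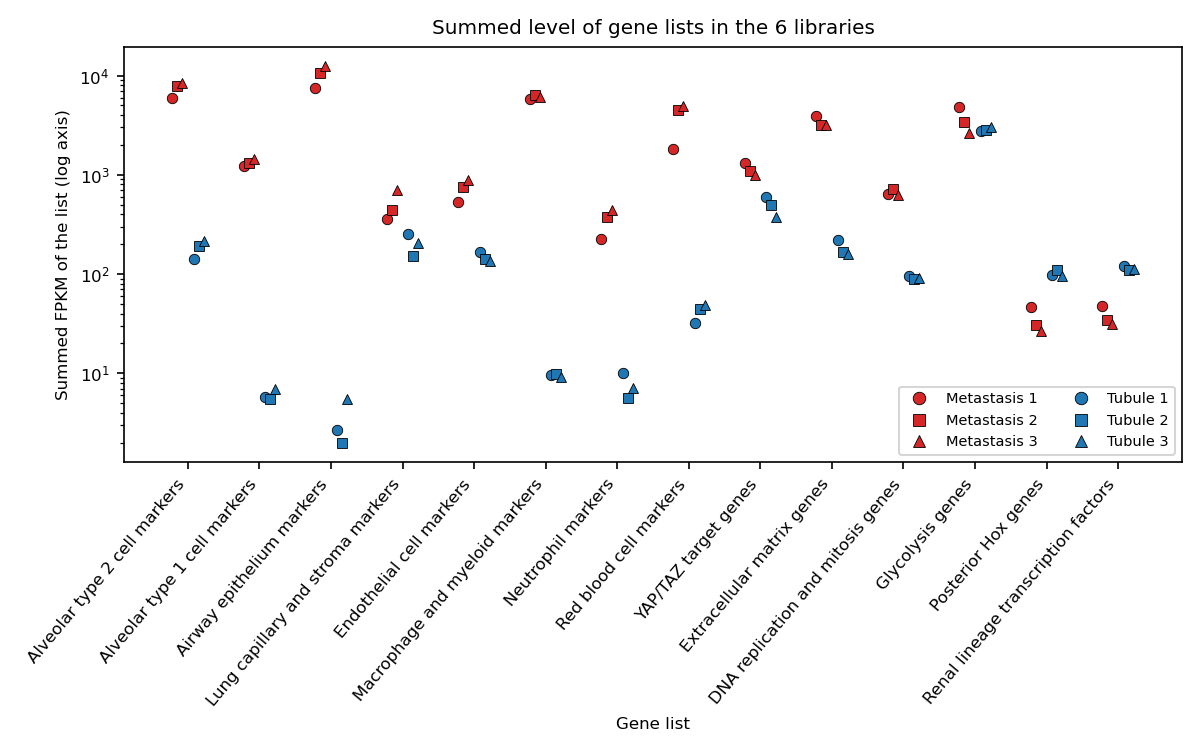
Summed FPKM (vertical axis, log scale) of 14 gene lists (horizontal axis) in the 3 metastases (red) and the 3 tubule libraries (blue), 1 marker shape a library. Metastasis 1 (circles) is lowest for the 8 lung, vessel and blood lists and highest for the renal lineage and posterior Hox lists, and all tubule libraries lie above all metastases only for those 2 kidney lists.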

How the data were processed

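Bulk RNA sequencing of total RNA (RNeasy Micro kit, per the labels' protocols) gave 12 libraries, of which 3 lung metastasis and 3 proximal tubule libraries are compared here. The authors deposited FPKM values for 24432 genes, made with bcl2fastq 2.17.1.14 and Salmon on GRCm38/mm10, per the submitters' processing notes. The Salmon version, annotation and gene lengths were not stated, and no counts were used. GENCODE M21 gave symbols for 24189 genes.

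The 16313 genes that reached 1 FPKM in 3 or more of the 12 libraries were fitted on log2(FPKM + 1) with limma 3.58.1 (R 4.3.3, trended variance) over 4 groups of 3, with Benjamini-Hochberg adjustment and a threshold of 0.05. The fit was tested on simulated data. Scaling alternatives were median-of-ratios, TPM and quantile normalization, and pseudocounts, filters, weights, a replicate block and single libraries were varied too. Tables were handled in Python 3.11.15 with pandas 2.3.3.

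Members and lists were chosen with earlier results of these data known. Genes were named by rule: fixed genes of interest, the 15 largest rises and falls among protein-coding genes called under both FPKM and median-of-ratios scaling with a mean of 10 FPKM or more and groups that did not overlap, for each list the 3 largest called members, the largest the other way and the highest level, and the 10 genes most above or below each other group. Genes named outside it were chosen after their values were seen. These are the list members that were not called, the genes holding a motif, the genes most variable among metastases, the genes named with families, Mir6236, and Cd44, Clcn5, Cnn1, Dab2, Emx2, Esrra, Eya1, Foxf2, Foxj1, Gpx3, Hnf4g, Hoxa9, Hoxc9, Hoxd10, Hoxd9, Itgb6, Krt18, Marco, Osr1, Scnn1b, Slc22a6, Slc34a2, Slc5a2, Snai1 and Zeb1. Some genes and motif matches that these choices cover are not reported here. Promoters are RefSeq, GRCm38.p6.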

Additional observations from a re-analysis of the deposited data

How the results depend on the processing

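Counts of calls for metastases against tubule moved with the scaling and little with single libraries. Without any 1 of the 6 libraries they ranged from 8098 to 8286 higher and from 1991 to 2086 lower. Lower calls numbered 4366 after median-of-ratios scaling, 4127 with it over protein-coding genes, 3683 without the 50 most abundant genes, 5817 in TPM and 5275 after quantile normalization, where higher calls numbered 4511 in TPM, 4581 after quantile normalization and 5343 over protein-coding genes. Median-of-ratios scaling and fitting of these 6 libraries alone, an alternative chosen after seeing the data, gave 5234 lower calls. Asking for a change of more than 2-fold left 3421 higher and 848 lower. The other alternatives (pseudocounts, filters, array weights, robust variances and the fit of 2 groups) left both counts within 1.5 times.

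Counts against the other tumors were less stable. Against the primary tumors, higher and lower calls numbered 712 and 463 in a fit of the 2 groups, 5246 and 4497 with array weights, 280 and 218 past 2-fold, 603 and 552 without primary tumors 2 and 3 (the other alternative chosen after seeing the data), and 849 to 3299 and 705 to 2969 without single libraries. Against the allografts, lower calls numbered 464 in TPM, 801 without the 50 most abundant genes and 2656 without primary tumors 2 and 3, higher calls 1355 with a filter at 5 FPKM, and both 3272 and 3239 with array weights and 439 and 76 past 2-fold, with ranges of 1458 to 2096 and 820 to 1646 without single libraries. Genes above each other group numbered 414 with the 5 FPKM filter, 1435 with array weights, 208 past 2-fold, 509 without primary tumors 2 and 3 and 540 to 1071 without single libraries. Genes below each numbered 22 in TPM, 141 after quantile normalization, 28 with a pseudocount of 5, 417 with array weights, 1 past 2-fold and 16 to 123 without single libraries. By library, higher and lower calls against the primary tumors numbered 1106 and 817, 849 and 705, and 875 and 742 without metastasis 1, 2 or 3, and 3299 and 2969, 1010 and 986, and 962 and 773 without primary tumor 1, 2 or 3. Lower calls against the allografts numbered 1031, 826 and 820 without metastasis 1, 2 or 3 and 1022 without allograft 1, and genes below each group 29, 16 and 17 without metastasis 1, 2 or 3 and 123 without primary tumor 1. The cause was not tested.

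A replicate block changed no call of a named gene against the tubule and gave 8719 higher and 2331 lower calls. The labels do not say that numbers pair the libraries, and deviations of same-numbered metastasis and tubule libraries correlated at -0.0129, 0.0165 and -0.0433.

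Among called genes, Lats2 went from 0.95 to -0.055 in TPM. Pck2 went from 0.86 to -0.054 in TPM. Ramp2 went from 0.64 to -0.42 in TPM. The sign of genes that were not called also turned, around a log2 change of 0: Cyp2j13 went from 0.23 to -0.061 (median-of-ratios scaling), -0.27 (TPM), -1.06 (quantile normalization), -0.051 (that scaling over protein-coding genes) and -0.053 (that scaling over the 6 libraries). Ddx3y went from 0.25 to -0.28 (quantile normalization). Havcr1 went from 0.58 to -0.74 (quantile normalization). Hexdc went from -0.33 to -1.31 to 0.44 without single libraries. Hoxa5 went from 0.12 to -0.42 (median-of-ratios scaling), -0.81 (TPM), -0.62 (quantile normalization), -0.28 (without the 50 most abundant genes), -0.40 (that scaling over protein-coding genes) and -0.41 (that scaling over the 6 libraries). Krt8 went from 0.57 to -0.035 (median-of-ratios scaling), -0.49 (TPM), -0.014 (that scaling over protein-coding genes) and -0.025 (that scaling over the 6 libraries). Ldha went from 0.46 to -0.15 (median-of-ratios scaling), -0.60 (TPM), -0.13 (that scaling over protein-coding genes) and -0.14 (that scaling over the 6 libraries). Slc7a13 went from -0.10 to 0.16 (array weights), and ranged from -0.39 to 0.095 without single libraries. Tead3 went from 0.38 to -0.15 (median-of-ratios scaling), -0.54 (TPM), -0.40 (quantile normalization), -0.0037 (without the 50 most abundant genes), -0.13 (that scaling over protein-coding genes) and -0.13 (that scaling over the 6 libraries). Tyms went from 0.040 to -0.55 (median-of-ratios scaling), -0.99 (TPM), -0.30 (quantile normalization), -0.39 (without the 50 most abundant genes), -0.53 (that scaling over protein-coding genes) and -0.54 (that scaling over the 6 libraries), and ranged from -0.087 to 0.20 without single libraries. Wt1 went from 0.024 to -0.14 (median-of-ratios scaling), -0.23 (TPM), -1.03 (quantile normalization), -0.095 (without the 50 most abundant genes), -0.13 (that scaling over protein-coding genes), -0.018 (array weights) and -0.12 (that scaling over the 6 libraries), and ranged from -0.032 to 0.069 without single libraries. Yap1 went from 0.41 to -0.18 (median-of-ratios scaling), -0.61 (TPM), -0.020 (without the 50 most abundant genes), -0.16 (that scaling over protein-coding genes) and -0.16 (that scaling over the 6 libraries). After median-of-ratios scaling 160 of the genes named kept sign and call, 7 lost the call, 4 gained one and 8 changed sign.

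Low levels limit these data: 1 fragment over 2 kb was worth an estimated 0.024 to 0.0307 FPKM in the metastases, while the tubule columns gave no clear depth (22% to 22.9% of low values at whole fragments against 60.7% to 62.2%), so a tubule value of 0 has no stated floor. With 3 libraries a group no library could be tested as an outlier.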

Other observations

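Gene families, which overlap the lists above in part, were counted by symbol, beside 54% of all genes called higher and 14.4% lower against the tubule. After median-of-ratios scaling these shares of all genes were 37.4% and 26.8%. Of 313 solute carriers of any kind, 100 were called higher and 136 lower, or 78 and 173 after median-of-ratios scaling. Slc29a1, a nucleoside transporter, was among the largest rises, at 59.02, 83.7 and 68.6 FPKM in the metastases and 3.53, 2.59 and 1.91 FPKM in the tubule (log2 change 4.29 ± 0.29 (SE), adjusted p = 1.92e-06). Cytochromes P450 moved both ways: of 43, 12 were higher and 18 lower. Cyp2f2, of airway club cells, stood at 72.9, 113 and 197 FPKM against 0.229, 0.266 and 0.0958 FPKM (log2 change 6.63 ± 0.51 (SE), adjusted p = 4.01e-06), and Cyp4a14, a fatty acid hydroxylase of the tubule, at 0.0212, 0.051 and 0.0811 FPKM against 228, 206 and 297 FPKM (log2 change -7.85 ± 0.80 (SE), adjusted p = 1.9e-05). Of 9 UDP glucuronosyltransferases, 6 were lower and 1 higher, with a median of -5.43, and of 16 glutathione transferases 10 were lower and 4 higher, or 1 higher after median-of-ratios scaling.

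Families of secreted and adhesion genes were mostly higher. Of 16 matrix metalloproteinases, 14 were higher and none lower, and Mmp14, a membrane-bound collagenase, stood at 97.7, 78.6 and 68.9 FPKM against 1.58, 1.47 and 1.21 FPKM (log2 change 5.08 ± 0.61 (SE), adjusted p = 5.22e-05). Of 13 Wnt ligands, 11 were higher on the FPKM scale and 10 after median-of-ratios scaling, led by Wnt7b, which lung epithelium makes, at 11.5, 8.12 and 5.92 FPKM against 0.368, 0.17 and 0.457 FPKM (log2 change 2.80 ± 0.39 (SE), adjusted p = 0.00013). Of 30 chemokine ligands, 24 were higher and none lower under both scalings. Of 33 collagen chains, 25 were higher and 2 lower. Col4a3, a basement membrane chain, was not called and stood at 36.6, 20.4 and 23.9 FPKM against 80.7, 52.5 and 37.7 FPKM (log2 change -1.03 ± 0.52 (SE), adjusted p = 0.0996). Of 77 cytosolic ribosomal protein genes, 72 were higher on the FPKM scale and 42 after median-of-ratios scaling, with medians of 1.43 and 0.82. Of 38 proteasome subunits, 25 were higher on the FPKM scale and 5 after median-of-ratios scaling, a share below the 37.4% of all genes. Their medians were 0.76 and 0.16, near the 0.68 and 0.20 of all genes. The immunoproteasome subunit Psmb8 stood at 80.8, 83.8 and 82.2 FPKM against 4.23, 1.79 and 2.53 FPKM (log2 change 4.48 ± 0.59 (SE), adjusted p = 8.99e-05).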
